A study of Mus musculus with 10 samples.

Results

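The genes described here encode S100 proteins, a family of small calcium-binding proteins, and 10 were chosen by name: S100a1, S100a3, S100a4, S100a6, S100a8, S100a9, S100a10, S100a11, S100a13 and S100b. Of these, 9 had a row of the array table that named them alone, 1 row each, among 30142 genes tested in all. S100a11 had none, because the row that lists it also lists 2 other symbols. Tissue was taken from adult mice, male and female per the labels and 8 to 12 weeks old, in which a 2 mm controlled cortical impact had been applied to one hemisphere 7 days earlier. The injury is made by driving a piston into cortex laid bare through an opening in the skull. The ipsilateral group (n = 5) is tissue from the side of the impact and the contralateral group (n = 5) is the matching region of the other hemisphere, labelled as biological replicates. Strain was not given in the sources used here. Both groups come from injured animals, and no sham-operated group was part of the comparison, so a response of the uninjured side itself was not measured.

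S100 proteins form dimers and fold around EF-hands, helix-loop-helix units that bind calcium. Calcium binding turns most of them outward so that a hydrophobic face can grip a target protein, and several are also released and bind receptors such as RAGE and TLR4. In brain, S100b is made mainly by astrocytes and some oligodendrocytes and is measured in blood as a marker of brain injury. S100a8 and S100a9 form calprotectin, the abundant calcium-binding complex of neutrophils and monocytes, while S100a4, S100a6, S100a10 and S100a11 are known from motile, mesenchymal and reactive cells.

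None of the 9 measured genes passed the test between the sides (limma with Benjamini-Hochberg adjustment, threshold 0.05), beside 5.55% of all genes tested, 369 higher and 1305 lower. At an unadjusted p under 0.05, 1 of the 9 differed, S100a3, beside 21.3% of all genes. In all 9 genes the 2 groups of arrays overlapped, whereas 7.25% of all genes had groups that did not. Mean signals were higher ipsilaterally in 8 genes and lower in 1, beside 56.1% of all genes with a positive fold change. The median log2 fold change was 0.18 for the 9 genes and 0.02 for all genes. The data of the S100 genes lay in the spread of the ipsilateral arrays: replicates 4 and 5 stood above the other 3 ipsilateral arrays in 8 of 9 genes, beside 18.9% of all genes, a pattern that was noticed after the values had been seen. In 7 of the 9 genes those arrays were also the 2 highest of all 10, beside 10.1% of all genes. Fits without those arrays were added for this reason, so lower fold changes in the 8 genes followed from the choice. Because these are bulk samples, more or fewer cells of a type and more or less RNA per cell cannot be told apart.

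The arrays differed in ways that touch these results. Array medians lay between 4.79 and 4.84 ipsilaterally and between 4.71 and 4.77 contralaterally, so an offset between arrays cannot be told apart from side. The library labelled ipsilateral replicate 1 carried genes that are abundant in the olfactory bulb: Th, which encodes tyrosine hydroxylase, stood at 11.34 on it and between 5.14 and 5.45 on the other 9 arrays, and Eomes, a transcription factor gene of olfactory projection neurons, at 9.10 against 4.34 to 4.77. Without that array the log2 fold changes of the 9 S100 genes ran from 0.10 (S100a13) to 0.74 (S100a8), and none passed the test. The female-specific transcript Xist stood between 4.53 and 4.67, below the array's median on all 10 arrays, where the labels name both sexes. The mean of 9 measured genes of ependyma and choroid plexus was 8.23 and 7.47 on ipsilateral replicates 2 and 4, 8.62 and 6.91 on contralateral replicates 2 and 4, and 5.84 to 6.25 on the other 6 arrays, so calls that end without these 4 arrays are named. Nothing in the labels says whether arrays of the same number came from one mouse.

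**Figure D1:**
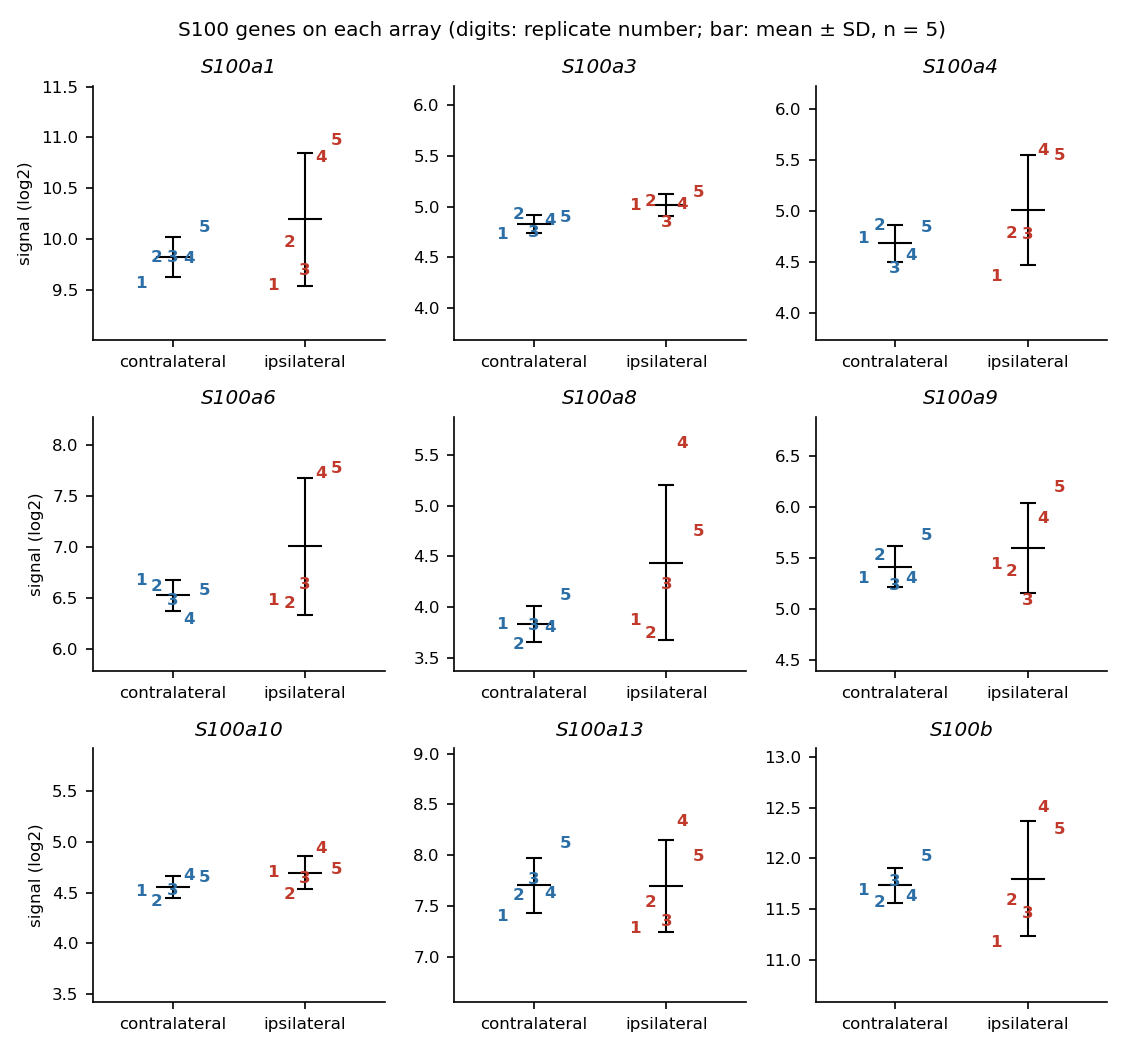
Log2 signal (vertical axis) of 9 S100 genes on the 5 contralateral and 5 ipsilateral arrays, 1 panel per gene, each spanning the same number of log2 units. Digits give the replicate number, and bars give the mean with 1 SD (n = 5). In S100a6 the ipsilateral arrays 4 and 5 stand at 7.72 and 7.77 and the other 3 between 6.45 and 6.63, within the contralateral range of 6.29 to 6.67.

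S100b, the astrocytic member that serves as a blood marker of brain injury, did not differ between the sides by more than its spread. Its log2 signal was 11.17, 11.59, 11.46, 12.50 and 12.28 on ipsilateral arrays 1 to 5 and 11.68, 11.57, 11.77, 11.63 and 12.02 on contralateral arrays 1 to 5. Ipsilateral replicates 4 and 5 were the highest of all 10 arrays, and ipsilateral replicates 1 and 3 were the lowest. The means were 11.80 ± 0.56 (SD, n = 5) and 11.73 ± 0.18, and the log2 fold change was 0.07 ± 0.23 (SE) with a 95% interval from -0.45 to 0.58 (adjusted p = 0.911). As a fold, that interval runs from 0.733 to 1.50. Among markers of cells that make S100b, 1 of 10 astrocyte genes was called higher and 1 of 9 measured oligodendrocyte genes lower. The share over all genes was 5.55%, and both list means overlapped between the sides. The log2 fold change was positive in 8 of 10 astrocyte genes (median 0.39) and in 0 of 9 oligodendrocyte genes (median -1.19). The mean of 10 astrocyte genes ranged from 10.76 to 11.91 ipsilaterally and from 10.42 to 10.85 contralaterally, and that of 9 of 10 listed oligodendrocyte genes from 9.07 to 10.34 and from 9.68 to 11.09. The part of either in the values of S100b was not tested. Without ipsilateral replicates 4 and 5, left out because they were high, the log2 fold change of S100b was -0.33. A lower value followed from that choice, so no test is drawn from it.

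S100a1 and S100a13 are neighbours on chromosome 3 that are read in opposite directions. S100a1 binds the ryanodine receptor and the calcium pump of the endoplasmic reticulum in muscle and neurons, and S100a13 takes part in the release of FGF1 and interleukin-1 alpha, which lack a signal peptide. Their promoter windows, 250 bases before to 50 after each start, overlap by 204 bases, and both are shown because the genes share this stretch of DNA. The sequences are those of RefSeq on GRCm38.p6, 5′ to 3′ on the strand of each gene, chr3:90514281-90514580 on the minus strand for S100a1 and chr3:90514185-90514484 on the plus strand for S100a13. Neither window holds any of the motifs searched further on, so both are in lower case throughout.
S100a1: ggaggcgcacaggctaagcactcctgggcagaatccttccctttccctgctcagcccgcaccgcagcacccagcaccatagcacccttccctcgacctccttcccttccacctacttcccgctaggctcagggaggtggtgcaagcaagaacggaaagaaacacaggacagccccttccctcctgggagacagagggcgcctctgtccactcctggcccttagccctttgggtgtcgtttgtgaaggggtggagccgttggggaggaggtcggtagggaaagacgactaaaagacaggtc
S100a13: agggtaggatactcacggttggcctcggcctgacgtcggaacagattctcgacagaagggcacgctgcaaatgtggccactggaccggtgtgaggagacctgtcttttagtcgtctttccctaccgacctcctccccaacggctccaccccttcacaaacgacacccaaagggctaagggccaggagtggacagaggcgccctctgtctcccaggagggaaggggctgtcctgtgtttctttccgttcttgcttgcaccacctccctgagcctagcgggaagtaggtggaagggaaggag
The S100a1 window has 61.0% G and C with 11 CG dinucleotides and the S100a13 window 59.3% with 14, where the median of 32851 promoter windows is 52.7% G and C.

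S100a1 had a signal of 9.54, 9.97, 9.69, 10.80 and 10.97 on ipsilateral arrays 1 to 5, against 9.56, 9.82, 9.82, 9.81 and 10.11 on the contralateral ones. The log2 fold change was 0.37 ± 0.27 (SE), with a 95% interval from -0.22 to 0.96 and an adjusted p of 0.473. Ipsilateral replicates 4 and 5 stood above the contralateral range, and the other 3 ipsilateral arrays lay within or just below it. Without replicates 4 and 5, left out because they were high, the log2 fold change was -0.09.

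S100a13 had a signal of 7.28, 7.54, 7.35, 8.33 and 7.99 on ipsilateral arrays 1 to 5 and of 7.40, 7.61, 7.76, 7.63 and 8.12 on contralateral arrays 1 to 5. The means were 7.70 ± 0.45 (SD, n = 5) and 7.70 ± 0.27, with a log2 fold change of -0.006 ± 0.21 (SE, 95% interval -0.46 to 0.45, adjusted p = 0.993). Its highest values were again those of ipsilateral replicates 4 and, after contralateral replicate 5, ipsilateral replicate 5.

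The 2 neighbours were also set beside each other on each array. This is given as a description from which no test is drawn, since the pair was chosen after the values of both genes had been seen. With each gene taken relative to its own contralateral mean, S100a1 exceeded S100a13 by 0.14, 0.31, 0.22, 0.35 and 0.86 on ipsilateral arrays 1 to 5, whereas the contralateral arrays lay between -0.13 and 0.09. All 5 ipsilateral arrays were above all 5 contralateral ones, with a mean of 0.38 on the log2 scale. How often other pairs of genes separate the sides in this way was not counted. Among single genes, 7.25% had groups that did not overlap. The mean was 0.22 without ipsilateral replicates 4 and 5 and 0.26 without ipsilateral replicate 5.

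S100a6 (calcyclin), S100a4 (metastasin) and S100a10 (p11) are known from dividing, motile and mesenchymal cells. S100a6 binds the ubiquitin ligase adaptor CacyBP, S100a4 binds nonmuscle myosin, and S100a10 has lost calcium binding and forms a tetramer with annexin A2 at the cell membrane. The promoter window of S100a4 (chr3:90603520-90603819, plus strand) is printed beside that of S100a8 (chr3:90668821-90669120, plus strand) because both hold a TATA box at nearly the same place, position 220 and 221 counted from the 5′ end of the window. Motifs searched on both strands were the TATA box TATAAA, the AP-1 site TGACTCA, the GC box GGGCGG and the PU.1 core GAGGAA, and capitals mark every match to any of them or to its reverse complement. The matches do not overlap each other.
S100a4: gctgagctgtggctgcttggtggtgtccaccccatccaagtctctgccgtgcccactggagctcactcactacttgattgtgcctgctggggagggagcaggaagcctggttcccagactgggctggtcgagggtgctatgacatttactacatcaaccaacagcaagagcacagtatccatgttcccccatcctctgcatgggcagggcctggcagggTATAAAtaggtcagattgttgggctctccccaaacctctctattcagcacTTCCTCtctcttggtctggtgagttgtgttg
S100a8: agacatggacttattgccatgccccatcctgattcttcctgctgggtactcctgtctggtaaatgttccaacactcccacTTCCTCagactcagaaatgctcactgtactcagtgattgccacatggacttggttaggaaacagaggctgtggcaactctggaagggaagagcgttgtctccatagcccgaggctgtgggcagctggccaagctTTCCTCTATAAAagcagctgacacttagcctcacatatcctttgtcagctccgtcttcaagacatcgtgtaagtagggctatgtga
TATAAA or its reverse complement occurs in 13.6% of the 32851 promoter windows, GAGGAA in 28.3%, GGGCGG in 35.7% and TGACTCA in 5.20%. RefSeq windows were found for 9 of the 10 genes, not for S100a10. S100a4 holds 1 PU.1 core and S100a8 holds 2, all on the opposite strand, and one of those in S100a8 abuts its TATA box. The letters TATAAA also occur in the window of S100a9, the partner of S100a8, and in 1 of 4 windows of S100a3, but at other places. They begin at position 251 in S100a9, which is the annotated start, and at position 199 in S100a3. No motif searched occurs in the windows of S100a6 and S100b. A match says that these letters are present and not that a factor binds.

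Among the 9 genes, S100a6 had the largest ipsilateral SD relative to the contralateral SD. Its signal was 6.48, 6.45, 6.63, 7.72 and 7.77 on ipsilateral arrays 1 to 5 and 6.67, 6.61, 6.48, 6.29 and 6.58 on contralateral arrays 1 to 5. Ipsilateral replicates 4 and 5 were more than 1 log2 unit above every contralateral array, and the other 3 were not above the contralateral range. The SD was 0.68 ipsilaterally and 0.15 contralaterally, a ratio of 4.54. The log2 fold change was 0.48 ± 0.27 (SE, 95% interval -0.11 to 1.08, adjusted p = 0.342). It was -0.006 without ipsilateral replicates 4 and 5, left out because they were high.

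S100a4 had a signal of 4.36, 4.78, 4.77, 5.60 and 5.55 on ipsilateral arrays 1 to 5, and of 4.73, 4.86, 4.44, 4.56 and 4.84 on the contralateral arrays. Only ipsilateral replicates 4 and 5 lay clearly above their array's median, and 4 of 10 arrays were above it at all, so signal over background was not shown on the others. S100a4 thus had a log2 fold change of 0.33 ± 0.22 (SE, 95% interval -0.17 to 0.82, adjusted p = 0.451). S100a10 had a signal of 4.70, 4.48, 4.64, 4.93 and 4.73 on ipsilateral arrays 1 to 5 and of 4.51, 4.41, 4.52, 4.67 and 4.65 on the contralateral ones. It was above the array's median on ipsilateral replicate 4 alone, and its log2 fold change was 0.14 (95% interval -0.05 to 0.33, adjusted p = 0.381). At such signals the size of a difference in S100a10 is not settled.

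S100a11 binds annexin A1 and has a role in membrane repair. The sole row that lists it also lists Gm12854 and Gm5068, which RefSeq calls pseudogenes, the latter under the name S100a11-ps, so that its signal can be given to no single gene. That row stood at 8.79, 8.87, 9.69, 10.22 and 11.60 on ipsilateral arrays 1 to 5 and at 8.21, 8.76, 8.45, 8.47 and 8.03 on contralateral arrays 1 to 5. All 5 ipsilateral arrays were above all 5 contralateral ones; the lowest ipsilateral signal (8.79) was close to the highest contralateral one (8.76). Its log2 fold change was 1.45 ± 0.46 (SE, 95% interval 0.43 to 2.47), and it did not pass the test when rows with several symbols were kept (adjusted p = 0.0997 over 32209 rows), an alternative chosen after seeing the data. Leaving out 1 array at a time gave 1.01 to 1.71, and the row passed in 1 of those 10 fits, without ipsilateral replicate 1 (adjusted p = 0.0465). In a limma fit over all 65956 rows and all arrays the adjusted p was 0.127.

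S100a8 and S100a9 encode the subunits of calprotectin. S100a8 was low on most arrays, and S100a9 was above the array's median on all 10. S100a8 had a signal of 3.87, 3.74, 4.22, 5.61 and 4.74 on ipsilateral arrays 1 to 5 and of 3.83, 3.63, 3.82, 3.80 and 4.12 on contralateral arrays 1 to 5. Ipsilateral replicate 4 was the 1 array on which it exceeded the array's median. The log2 fold change was 0.60 ± 0.31 (SE, 95% interval -0.08 to 1.27, adjusted p = 0.296). It was 0.10 without ipsilateral replicates 4 and 5, left out because they were high. With levels mostly under the array medians, the fold change of S100a8 is not a measure of its size.

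S100a9 had a signal of 5.44, 5.37, 5.08, 5.89 and 6.19 on ipsilateral arrays 1 to 5, and of 5.30, 5.52, 5.23, 5.30 and 5.72 on contralateral arrays 1 to 5. Its 2 highest arrays were ipsilateral replicates 5 and 4, while ipsilateral replicate 3 was the lowest of all 10. For S100a9 this gave a log2 fold change of 0.18 ± 0.19 (SE, 95% interval -0.25 to 0.61, adjusted p = 0.653). Relative to each gene's contralateral mean, S100a8 exceeded S100a9 by 0.42 on average ipsilaterally, with arrays between -0.06 and 1.29 that overlapped the contralateral range of -0.32 to 0.16. Of the 12 neutrophil genes listed, none passed, 11 had a positive log2 fold change with a median of 0.09, and their mean ranged from 4.29 to 4.72 ipsilaterally and from 4.24 to 4.33 contralaterally, under each array's median. Lcn2, a granule gene that reactive glia also make, stood at 5.31 and 6.06 on ipsilateral replicates 4 and 5 and between 4.11 and 4.37 on the other 8 arrays. Csf3r, a receptor gene of neutrophils and other myeloid cells, was likewise highest there, at 7.43 and 7.34. Of the listed neutrophil genes, Ly6g, Mpo, Elane, Ltf, Ngp, Mmp8 and Mmp9 were above the array's median on no array. Csf3r, Cxcr2 and Camp were above it on all 10, Lcn2 on 2 and Retnlg on 1. The part of neutrophils or monocytes in the calprotectin values was not tested.

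S100a3, a cysteine-rich member known from hair, was the sole gene of the 9 with an interval of its own above 0. It stood at 5.01, 5.05, 4.84, 5.02 and 5.14 on ipsilateral arrays 1 to 5 and at 4.73, 4.92, 4.75, 4.86 and 4.89 on contralateral arrays 1 to 5. On 4 of 5 ipsilateral arrays it was above every contralateral one. Its signals lay near the array medians (4.71 to 4.84), and it was above the array's median on 8 of 10 arrays. The log2 fold change was 0.18 ± 0.07 (SE, 95% interval 0.03 to 0.33, unadjusted p = 0.0225), which did not pass after adjustment in limma (adjusted p = 0.156). With median centring it was 0.11 and with quantile scaling 0.108 (adjusted p = 0.403 and 0.433). Unlike the other 8 genes, its 2 highest ipsilateral arrays were not replicates 4 and 5.

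**Figure D2:**
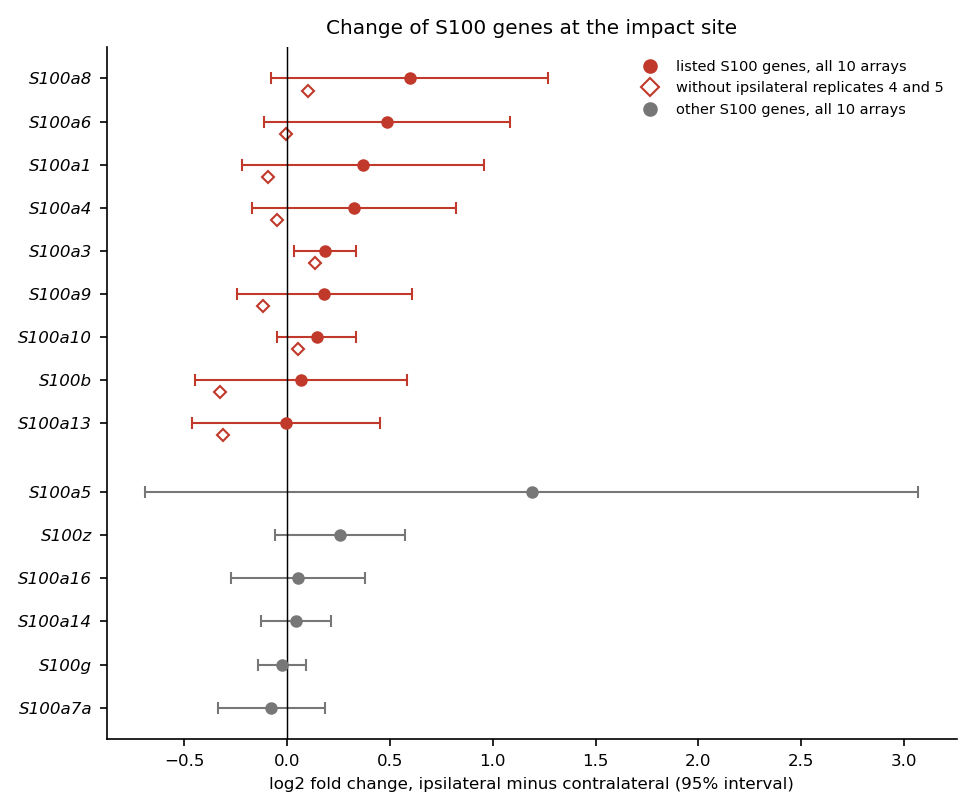
Log2 fold change, ipsilateral minus contralateral (horizontal axis, bars 95% interval of the limma fit over 5 arrays a side), of the 9 S100 genes in red and 6 further S100 genes in grey. Open diamonds give the value without ipsilateral replicates 4 and 5, left out because they were high. There S100a6 moves from 0.48 to -0.006 and S100a8 from 0.60 to 0.10.

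All 9 S100 genes had a larger SD ipsilaterally, as did 63.6% of all genes. The ratio of the ipsilateral to the contralateral SD ran from 1.28 (S100a3) to 4.54 (S100a6), with a median of 2.98 over the 9 genes and 1.24 over all genes. The mean signal of the 9 genes was 6.43, 6.55, 6.52, 7.38 and 7.26 on ipsilateral arrays 1 to 5 and lay between 6.49 and 6.78 contralaterally. Ipsilateral replicates 1, 2 and 3 were thus at the contralateral level and replicates 4 and 5 above it. Markers of several cell types stood highest on the same 2 arrays. The mean of 9 measured microglia genes was 9.31 and 9.09 on ipsilateral replicates 4 and 5, 8.14 to 8.26 on the other 3 and 7.70 to 8.20 contralaterally. For 9 measured genes of monocytes and macrophages the values were 8.12 and 8.43, 6.68 to 7.17 and 6.15 to 6.82. For 10 astrocyte genes they were 11.64 and 11.91, 10.76 to 11.13 and 10.42 to 10.85. Each of these 3 lists had a positive median log2 fold change, 0.77, 0.92 and 0.39 in that order, with 0, 1 and 1 gene called. The mean of 10 neuronal genes was lowest on these arrays, at 14.14 on each, against 14.36 to 14.73 on the other 8. The lists of neutrophils and of fibroblasts and meninges were also highest on ipsilateral replicates 4 and 5. Among ipsilateral arrays alone, so were oligodendrocytes (10.34 and 9.98) and endothelium (8.31 and 8.60). The lists of pericytes and smooth muscle and of ependyma and choroid plexus did not have this order. The part of these cells in the S100 values was not tested.

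**Figure D3:**
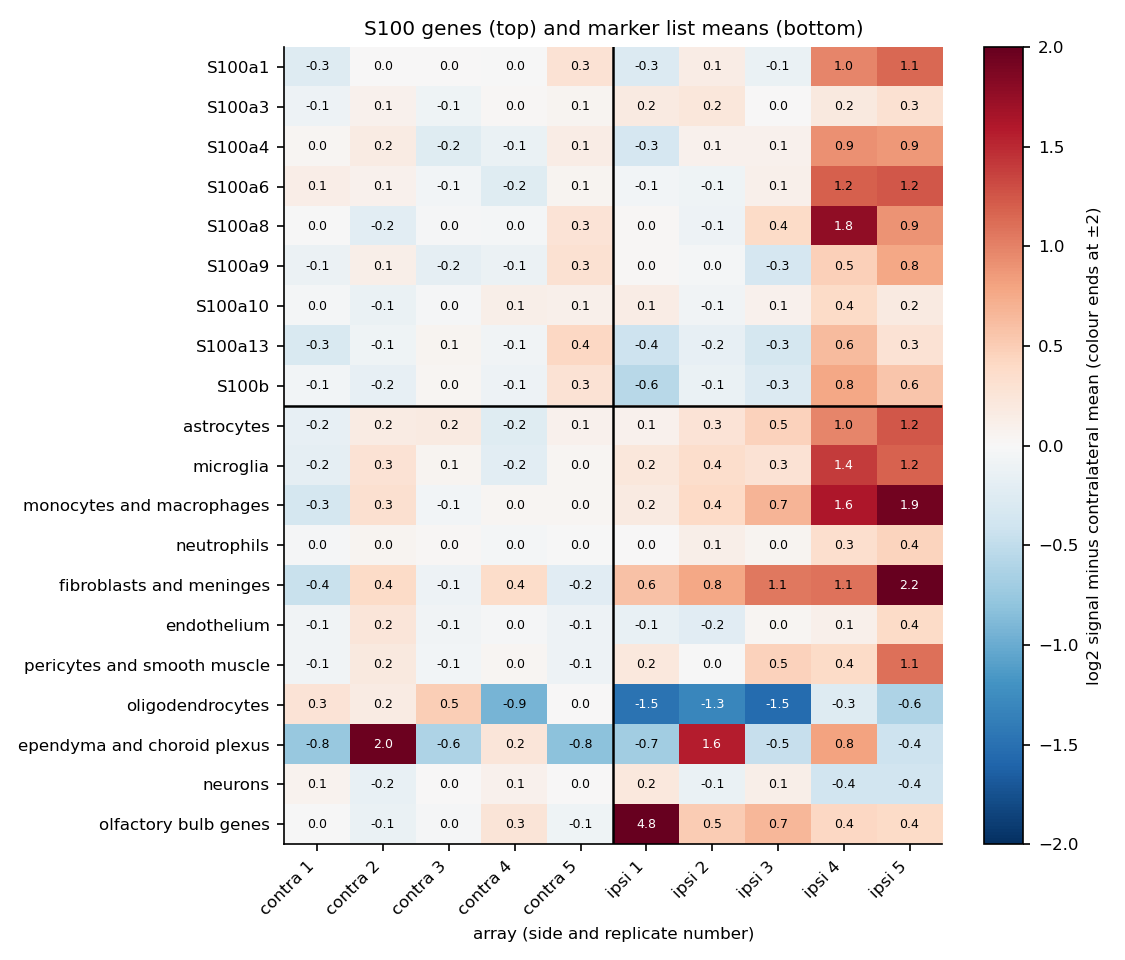
Signal of each S100 gene (upper rows) and mean of each marker list (lower rows) on each array (columns), as log2 difference from the mean of the 5 contralateral arrays. Ipsilateral replicates 4 and 5 are the highest columns of S100a6, with 1.19 and 1.24, and the olfactory bulb list, composed after the values were seen, stands 4.8 log2 units up on ipsilateral replicate 1 alone.

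Called genes in the marker lists stand beside 5.55% of all genes called in either direction. In the list of fibroblasts and meninges 2 of 9 measured genes rose, the proteoglycan gene Dcn (2.88 ± 0.63, SE, adjusted p = 0.0250) and the collagen gene Col1a1 (0.80 ± 0.19, adjusted p = 0.0398), and the list mean did not overlap between the sides (7.68 to 9.30 against 6.66 to 7.49). Among the oligodendrocyte genes Opalin, a myelin membrane gene, fell by 1.52 (adjusted p = 0.0164) and the value for Mog, another myelin gene, was -1.32 (adjusted p = 0.0537). The water channel gene Aqp4 rose by 0.95 (adjusted p = 0.0117) among the astrocyte genes, where the glutamate transporter gene Slc1a3 had 0.47 (adjusted p = 0.0623). In the list of monocytes and macrophages Cd163, a scavenger receptor gene of macrophages, rose by 0.47 (adjusted p = 0.0227), and F13a1 had 0.77 (adjusted p = 0.0843). The neuronal genes Rbfox3 and Nefl fell by 0.54 and 0.89 (adjusted p = 0.0102 and 0.0166). Without arrays 2 and 4 of each side, Opalin alone of the 7 called marker genes passed (adjusted p = 0.0169, others 0.0814 to 0.185). That fit rests on fewer arrays, and the log2 fold changes kept their signs. They were 0.98 (Aqp4), 0.57 (Cd163), 2.94 (Dcn), 1.06 (Col1a1), -2.1 (Opalin), -0.47 (Rbfox3) and -1.08 (Nefl). With 1 array left out, Aqp4 and Rbfox3 passed in all 10 fits, whereas Dcn failed in 6, Col1a1 in 7 and Cd163 in 4, and Opalin and Nefl failed without contralateral replicate 1 (adjusted p = 0.0526 and 0.0521). No gene passed in the lists of microglia (Itgam 1.08, Csf1r 0.90), neutrophils (Csf3r 0.75, Camp 0.13), endothelium (Flt1 -0.36, Cldn5 0.37), pericytes and smooth muscle (Vtn 0.73, Acta2 1.43), or ependyma and choroid plexus (Tmem212 0.27, Rarres2 0.16).

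The other S100 genes on the array gave no call either. Of 6 such genes S100a16, which is made in many tissues, was the sole one above the array medians on all arrays, at 8.25 ± 0.36 (SD, n = 5) ipsilaterally and 8.20 ± 0.06 contralaterally, and its highest arrays were again ipsilateral replicates 4 and 5 (8.68 and 8.58). The value for S100z was a log2 fold change of 0.26 (adjusted p = 0.336), and S100a7a, S100a14 and S100g had -0.08, 0.04 and -0.03. S100a5 stood at 8.72 on ipsilateral replicate 1 and between 3.46 and 4.14 on the other 9 arrays, so that its log2 fold change of 1.19 (95% interval -0.69 to 3.07, adjusted p = 0.470) rested on 1 array.

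Receptors and membrane partners of S100 proteins yielded 1 call among 11 measured of 12 listed, beside 5.55% of all genes. Fgfr1, a fibroblast growth factor receptor gene, had a signal of 9.62, 9.58, 9.50, 9.71 and 10 on ipsilateral arrays 1 to 5 and of 8.90, 9.30, 9.13, 8.92 and 9.01 on contralateral arrays 1 to 5. The groups did not overlap, and Fgfr1 rose by 0.63 ± 0.11 (SE, adjusted p = 0.00782). Without the arrays numbered 2 and 4 it did not pass (adjusted p = 0.0823). The median log2 fold change of the 11 genes was 0.28, where that of all genes was 0.02. The pattern-recognition receptor gene Tlr4, whose product binds calprotectin, had 0.65 (adjusted p = 0.0599), the scavenger receptor gene Cd36 0.95 (adjusted p = 0.0746), and Ager, which encodes RAGE, 0.12 (adjusted p = 0.275) at signals under every array's median.

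Among intracellular partners, 20 measured of 25 listed, 1 rose and 2 fell, beside 5.55% of all genes called in either direction. Atp2a2 encodes SERCA2, the calcium pump that S100a1 binds. Its signal was 15.93, 15.88, 15.73, 15.70 and 15.73 on ipsilateral arrays 1 to 5 and 16.66, 16.33, 16.48, 16.24 and 16.42 on contralateral arrays 1 to 5. No ipsilateral array reached a contralateral one, and Atp2a2 fell by 0.63 (SE 0.08, adjusted p = 0.00248). Ppp5c, which encodes protein phosphatase 5, fell by 0.45 (SE 0.07, adjusted p = 0.00423), also with groups that did not overlap (10.61 to 10.90 against 11.15 to 11.35). Both remained below the threshold with each array left out in turn (adjusted p up to 0.0110 and 0.0169). The scaffold gene Dlg5 rose by 0.44 (adjusted p = 0.0482), but failed in 8 of the 10 fits without 1 array (adjusted p up to 0.121) and without arrays 2 and 4 of each side (adjusted p = 0.167). Anxa2, the partner of S100a10, had 0.73 (adjusted p = 0.115), with ipsilateral arrays at 6.13, 6.43, 6.67, 7.20 and 7.56 and contralateral arrays between 5.77 and 6.35. The median of the 20 genes was 0.09.

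**Figure D4:**
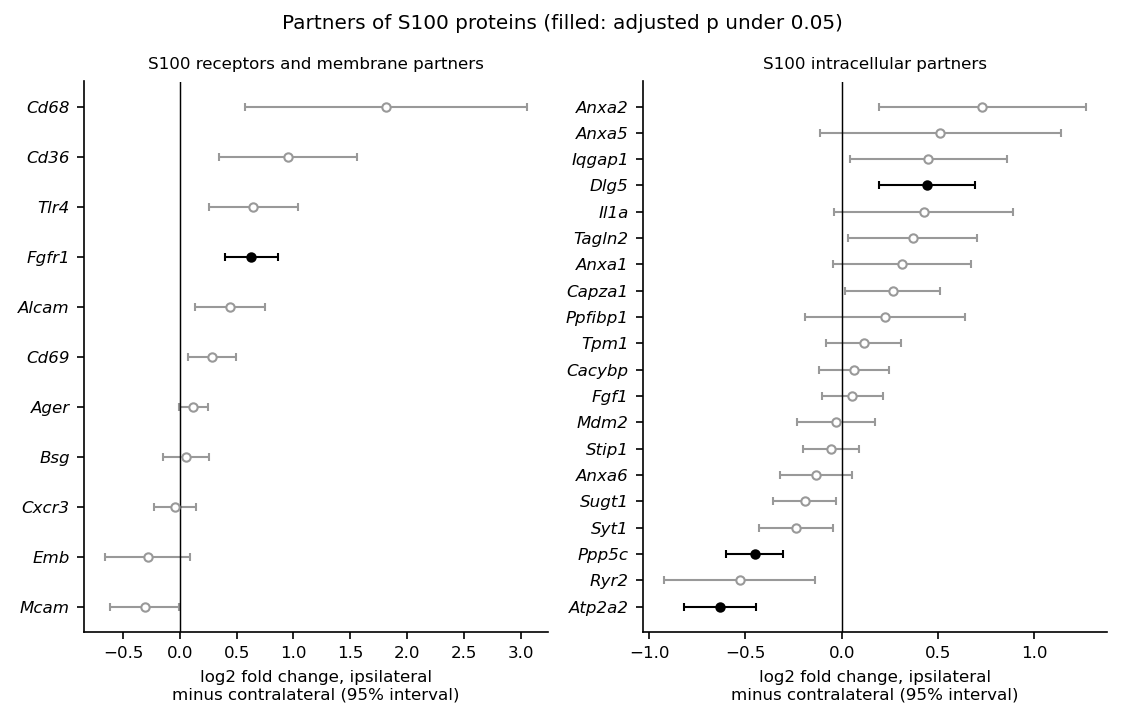
Log2 fold change, ipsilateral minus contralateral (horizontal axis, bars 95% interval, 5 arrays a side), of genes for receptors and membrane partners (left) and for intracellular partners (right) of S100 proteins. Filled points passed at an adjusted p under 0.05: Fgfr1 (0.63) and Dlg5 (0.44) upward, Atp2a2 (-0.63) and Ppp5c (-0.45) downward.

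For the 3 S100 genes that varied most over the 10 arrays, the genes with the most similar course were found by the root-mean-square (RMS) difference between profiles, each centred on its own mean over the 10 arrays. Closest to S100a6 were Dhrs1 (RMS difference 0.11 on the log2 scale), the annexin gene Anxa3 (0.12) and the lactate transporter gene Slc16a1 (0.12). Closest to S100a1 were the fatty acid desaturase gene Fads2 (0.14), the small heat shock protein gene Hspb6 (0.15) and the selenium carrier gene Selenop (0.15). Closest to S100a8 were Npl (0.18), Tnfaip8l2 (0.22) and the apolipoprotein gene Apoc1 (0.22). All 9 of these genes were, like the S100 genes they resemble, highest on ipsilateral replicates 4 and 5, and none passed the test between the sides (adjusted p from 0.178 to 0.417). These genes were searched for likeness among all genes tested, so the shared highest arrays follow from the search. The likeness is a description over 10 arrays.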

How the data were processed

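RNA from 10 mouse brain samples was hybridised to 1 whole-transcript array each. The deposited values are taken as log2 signals per probe set from their range (1.97 to 19.93), and Transcriptome Analysis Console 4.0 is named in the submitters' processing notes. How background was corrected and arrays were normalized, and on which genome build, is not given in the sources used here. Precision is limited by the number of arrays.

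Of 65956 rows, 30604 named 1 gene symbol, 2146 several, and 33206 were unnamed here. Symbols were updated through Entrez identifiers (22818 rows matched, 827 changed, RefSeq GRCm38.p6). The brightest 1-symbol row per gene was kept, which left 30142 genes. Ipsilateral minus contralateral was fitted over all genes with limma 3.58.1 (R 4.3.3, lmFit and eBayes defaults, no covariates), two-sided, with Benjamini-Hochberg adjustment and a threshold of 0.05, and steps were tested on simulated data. Intervals are 95% intervals of that fit, and its p-values set the difference between the sides against the spread between arrays of a side. The fit takes the arrays as independent and the spread as equal on both sides. Adjusted p refers to this fit unless stated.

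The members and lists were chosen with earlier results of these data known. Genes named were all members, the further S100 genes listed, called partners and 2 genes per marker list with the largest absolute moderated statistic. Also named were 3 genes nearest in course to each of the 3 most variable members, leaving out symbols starting with Gm and digits or LOC or ending in Rik. Tlr4, Cd36, Ager, Anxa2, the neutrophil genes other than Csf3r and Camp, and the olfactory bulb genes were named after their values were seen. Alternatives were block terms, variance models, array weights, 3 scalings, 2 filters on dim genes, row choices, 0.01 as the threshold and fits that leave out 1 array each. The correlation of deviations between same-numbered arrays was 0.26, 0.25, -0.04, -0.40 and -0.03. This check runs over all genes and cannot decide whether the numbers pair the samples. Ipsilateral replicate 1 was most like contralateral replicate 1, and genes of ependyma and choroid plexus were high on arrays 2 and 4 of both sides. Protein sequences were not used here.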

Additional observations from a re-analysis of the deposited data

Results flagged for a closer look

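S100a5 was far from the other arrays of its side on 1 array: ipsilateral replicate 1 stood at 8.72, and the next ipsilateral array at 4.14. The gap took up 0.907 of the ipsilateral range. On the same array, genes abundant in the olfactory bulb stood above all 9 other arrays by 5.89 (Th), 4.99 (Cdhr1, a cadherin-related gene of olfactory projection neurons), 4.41 (Scgn), 4.33 (Eomes) and 3.44 (Calb2) on the log2 scale, and Tbx21 by 0.87. These 6 genes were chosen after the values had been seen. S100a14 was lowest on ipsilateral replicate 3, at 4.77, with the next array at 4.88. Its signals lay near the array medians. Of 32 groups of 5 arrays examined, 2 had such an array, and chance gives about 1 in 20. The row that lists S100a11 with 2 other symbols, outside the genes tested, had ipsilateral signals above all contralateral ones. Among the genes tested, 7.25% had groups that did not overlap. The log2 fold change of that row, 1.45, did not pass the test.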

How the results depend on the processing

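None of the 9 S100 genes was called under any of the 25 alternatives, 22 planned and 3 added after seeing the data. Without both ipsilateral replicates 4 and 5, log2 fold changes were -0.091 (S100a1), -0.049 (S100a4), -0.006 (S100a6), -0.117 (S100a9) and -0.327 (S100b), the reverse of their signs over all 10 arrays. Those arrays were left out because they stood high, so lower values followed from the choice. S100b also turned to -0.006 with median centring and to -0.187 without the arrays numbered 2 and 4, and S100a13 to 0.008 with array weights and 0.021 with cyclic loess. Leaving out 1 array gave -0.109 to 0.224 for S100b and -0.164 to 0.098 for S100a13, which turned sign in 2 and 5 of those 10 fits. Median centring lowered S100a9 to 0.108 and S100a10 to 0.072. S100a3, S100a8 and S100a10 kept a positive sign in every alternative that held them. The lowest adjusted p of any of the 9 genes was 0.0714 (S100a3). The difference of change between S100a1 and S100a13 ran from 0.255 to 0.435 when 1 array was left out. For all genes, 1674 calls became 946 with the replicate number as a fixed replicate block, 2855 with median centring, 584 at a threshold of 0.01, 851 to 2367 without 1 array, 803 without ipsilateral replicates 4 and 5, and 366 with arrays 2 and 4 of each side left out. The causes were not tested. The block changed no call of an S100 gene. It ended those of Dlg5, Cd163, Col1a1, Opalin and Nefl (adjusted p from 0.0507 to 0.112). Leaving out ipsilateral replicates 4 and 5 ended those of Cd163, Dcn, Nefl and Dlg5 (adjusted p from 0.0618 to 0.137). S100a8 and S100a10 lay above the array's median on 1 of 10 arrays each and S100a4 on 4, which limits what their fold changes can show. The same limit holds for S100a3, which lay near the array's median throughout and above it on 8 of 10 arrays.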
